A study of Homo sapiens with 40 samples.

Results

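BT474R cells that had been starved of serum and then kept for 24 h in fresh starvation medium with vehicle were compared with BT474R cells collected at the end of the starvation (T0), by RNA sequencing and over all genes. BT474 is an established human breast carcinoma line of luminal type that carries many copies of ERBB2, the gene of the receptor HER2. BT474R is 1 clone of it, grown under trastuzumab, an antibody against HER2, until it tolerated the drug. The members were the 4 libraries of these groups, 2 of BT474R at T0 and 2 of BT474R given vehicle for 24 h, out of 40 libraries in the series. The vehicle was water, and neither group received EGF or heregulin, the ligands tested elsewhere in the study. Both groups had the same starvation in medium with little serum. The 24 h group differed from T0 in a medium change, in a further 24 h in low serum and in a further 24 h of growth in the same well, and these cannot be told apart. Vehicle libraries of BT474R at 1 h and 12 h, and the matching BT474 libraries, served for comparison.

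In serum-starved epithelial cells the growth factor cascades from the ERBB receptors to RAS, ERK and PI3K run at a low level, and the transcripts they drive are low with them. Sterol and fatty acid enzymes are controlled by the SREBP factors, which enter the nucleus when membrane sterol is short, since serum lipoproteins are a main source of cholesterol for cultured cells. HIF factors raise glycolytic enzymes and transcripts of the oxygen response when oxygen is short. E2F factors drive the genes of DNA synthesis before S phase, and the mitotic genes follow later in G2 through promoter elements bound by the DREAM and MMB complexes.

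The 4 libraries held 16794594 and 21443106 counts at T0 and 25644212 and 21836985 counts at 24 h, within the range of 16794594 to 33387936 over the 20 BT474R libraries. Levels are given as CPM (counts scaled to a common library total) after scaling by the trimmed mean of M-values (TMM), and a count under 3 in a library was taken as under the floor. All 13 markers of a luminal line with amplified HER2 were over that floor, and their summed level was 16612 to 17056 CPM at T0 and 14142 to 14318 CPM at 24 h, before TMM scaling. Of 6 fibroblast markers, DCN and LUM were at 0 in all 4 libraries and the sum of 198 to 201 CPM at T0 and 282 to 283 CPM at 24 h was almost wholly COL1A1. Of 5 immune markers, CD3E was at 0, and only CD68 was over the floor, with sums of 1.55 to 2.05 CPM at T0 and 1.87 to 2.02 CPM at 24 h. The 4 endothelial markers summed to 14.6 to 15.3 CPM at T0 and 9.71 to 10.9 CPM at 24 h, mostly VWF. In bulk RNA fewer cells of a kind and less RNA per cell cannot be told apart. The labels do not say that duplicates came from separate cultures, so p-values measure only the spread between duplicates, which may be technical. That spread was pooled over all 20 BT474R libraries, those given ligand among them, and over all 40 libraries for the difference between lines. The 24 h duplicates differed more than the T0 duplicates, with an SD of the log2 replicate difference over genes of 0.171 against 0.113. The pooled spread may therefore be too small for the 24 h group. Replicate 2 of the 24 h group lay further from T0 than replicate 1 in several gene groups below, and those results are given with and without it.

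The difference between 24 h and T0 was broad and mostly small. By the quasi-likelihood test of edgeR, with p-values adjusted by Benjamini-Hochberg over 24287 genes (called below an edgeR adjusted p, with a gene called when it was under 0.05), 3319 genes were called, 13.7% of the genes tested. Of these, 1660 were higher at 24 h (6.83%) and 1659 lower (6.83%). The counts of list members below stand beside these shares. The shares take in low genes, whose changes were the least precise, and 11643 of the genes tested had a mean of at least 5 CPM. A share among genes of like level was not computed. Called genes had a median absolute log2 fold change of 0.37. Fold changes and tests given below are of 24 h against T0 unless the sentence names another contrast, also where 12 h levels stand beside them. Only 322 of the called genes differed by more than 2-fold, 255 higher and 67 lower. In 3318 of the 3319 called genes both 24 h libraries lay on the same side of both T0 libraries. The lack of overlap given for single called genes below therefore adds nothing to the call. Of all 24287 genes tested, 6757 had both 24 h libraries above both T0 libraries and 5953 had both below. Leaving out T0 replicate 1 took the count to 1491, leaving out T0 replicate 2 to 1727, and leaving out 24 h replicate 1 to 2162. Without 24 h replicate 2 it was 2612.

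Few of these differences were called at 12 h. Vehicle at 12 h against T0 gave 274 calls, 1.13% of the genes tested, 86 higher (0.354%) and 188 lower (0.774%). Vehicle at 24 h against 12 h gave 3647 calls, 15% of the genes tested, 1693 higher (6.97%) and 1954 lower (8.05%). The comparisons share libraries, T0 in the first case and 24 h in the second, so the counts stand side by side only. Of the 3319 genes called at 24 h against T0, 130 (3.92%) were also called at 12 h against T0, and these were 47.45% of the 12 h calls. Without T0 replicate 1, T0 replicate 2 and 12 h replicate 2 in turn, the 12 h count was 172, 138 and 140. The 24 h against 12 h count was 2059 without 24 h replicate 1, 2285 without 12 h replicate 1 and 1667 without 12 h replicate 2.

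**Figure D1:**
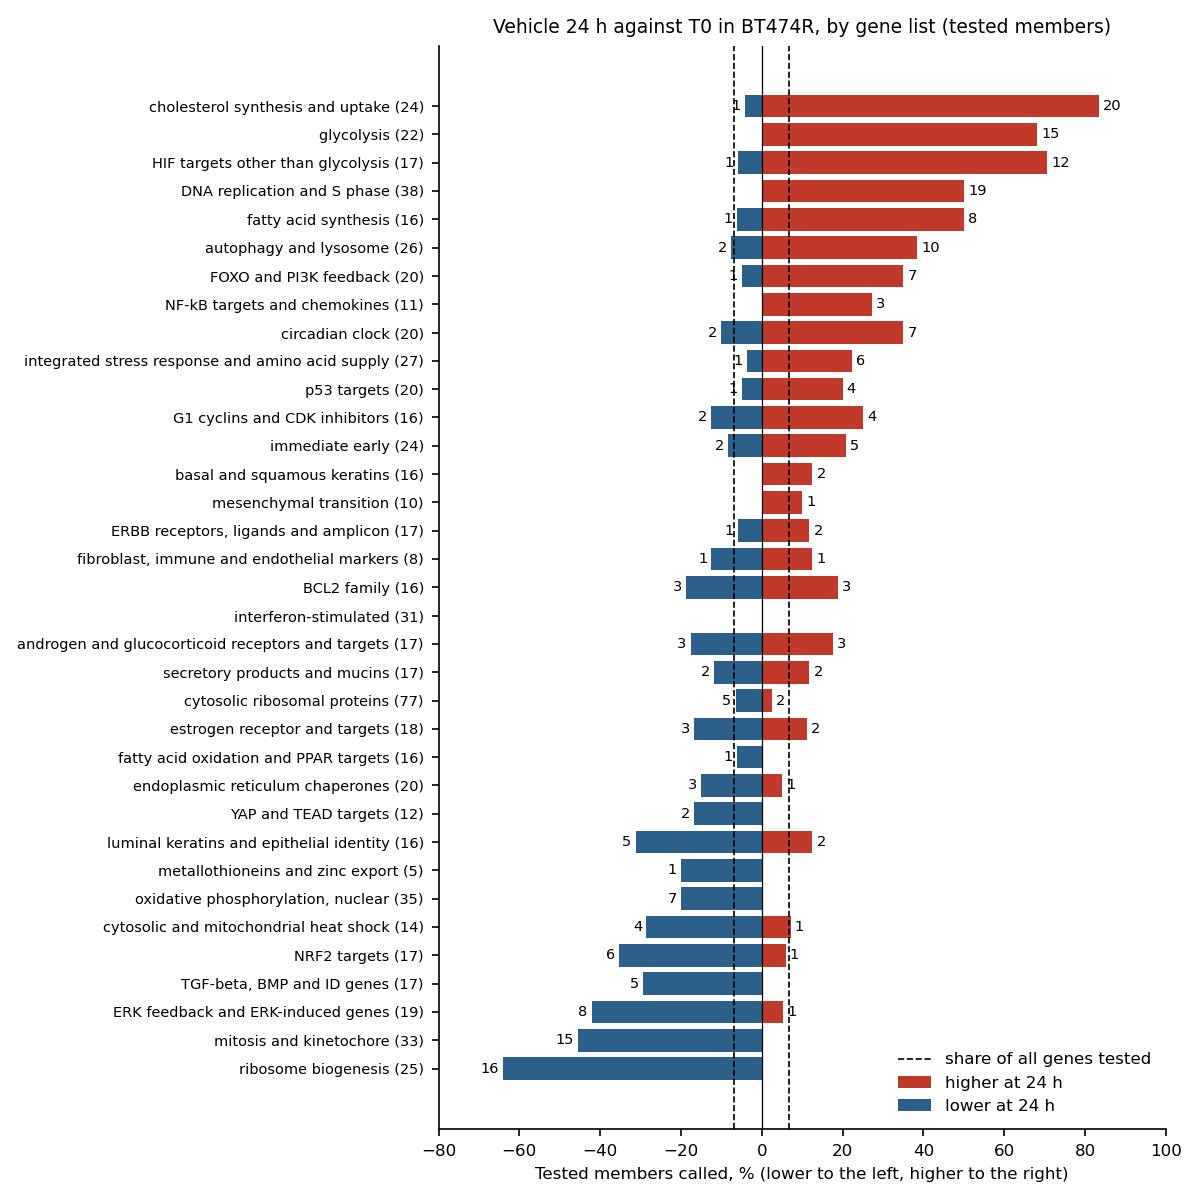
Share of the tested members of each gene list called at 24 h against T0 in BT474R, in percent, with higher genes to the right and lower genes to the left, the number of called genes at each bar end and the tested members in brackets. Dashed lines mark the share of all 24287 genes (6.83% in each direction), and the longest bar to the right is cholesterol synthesis and uptake, with 20 of 24 higher, and the longest to the left ribosome biogenesis, with 16 of 25 lower.

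The genes of cholesterol synthesis and uptake were higher at 24 h almost without exception. Of 24 members tested, 20 rose, 1 fell and 3 were not called, against 6.83% of all genes in each direction. The median log2 fold change of the list was 0.69, against 0.02 for all genes. At 12 h against T0 edgeR and DESeq2 called none and 4 had an unadjusted p under 0.05, with a median of 0.09, and 17 rose between 12 h and 24 h. The RefSeq promoters (GRCh38.p14, 250 bases before to 50 after the start) of FDPS and LSS, the called synthesis enzymes with the largest changes, are shown because the list moved together. Capitals mark the CCAAT motif or its reverse complement ATTGG, the letters of the box bound by NF-Y, a factor known to act beside SREBP. Other motifs are not marked.
FDPS promoter, chr1:155308616-155308915, plus strand: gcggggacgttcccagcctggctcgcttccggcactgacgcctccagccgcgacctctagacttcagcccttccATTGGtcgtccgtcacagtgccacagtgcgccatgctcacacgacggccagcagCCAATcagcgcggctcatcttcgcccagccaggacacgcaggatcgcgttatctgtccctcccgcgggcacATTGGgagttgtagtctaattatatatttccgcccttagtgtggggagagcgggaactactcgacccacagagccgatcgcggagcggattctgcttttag
LSS promoter, chr21:46228725-46229024, minus strand: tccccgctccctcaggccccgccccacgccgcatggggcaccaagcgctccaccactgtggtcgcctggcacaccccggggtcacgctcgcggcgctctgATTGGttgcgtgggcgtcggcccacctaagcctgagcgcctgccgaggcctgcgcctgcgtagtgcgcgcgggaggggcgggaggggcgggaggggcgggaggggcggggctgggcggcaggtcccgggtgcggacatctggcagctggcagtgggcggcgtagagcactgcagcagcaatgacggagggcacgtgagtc
CCAAT was found on either strand in 15 of the 18 tested members with a RefSeq promoter (83.3%), and in 35.7% of all 27305 promoters of that length. The match is a description of the letters only.

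At the head of the pathway HMGCS1, HMG-CoA synthase, was at 1419 and 1383 CPM at T0 and 1914 and 3311 CPM at 24 h (log2 fold change 0.90 ± 0.20 (SE), edgeR adjusted p = 0.00425). MVD, mevalonate diphosphate decarboxylase, was at 157 and 165 CPM at T0 and 253 and 409 CPM at 24 h (log2 fold change 1.04 ± 0.16 (SE), edgeR adjusted p = 0.000181). In both genes each 24 h library lay above both T0 libraries, and replicate 2 lay above replicate 1. FDPS, farnesyl diphosphate synthase, was at 245 and 249 CPM at T0 and 524 and 717 CPM at 24 h, 2.51 times the T0 level (log2 fold change 1.33 ± 0.11 (SE), edgeR adjusted p = 1.94e-07). Its 12 h libraries, at 246 and 259 CPM, were close to T0 (edgeR adjusted p = 0.966). LSS, lanosterol synthase, was at 112 and 108 CPM at T0 and 209 and 279.8 CPM at 24 h (log2 fold change 1.15 ± 0.11 (SE), edgeR adjusted p = 9.10e-07). SQLE, squalene epoxidase, which acts just before LSS, differed less, at 402 and 399 CPM at T0 and 459 and 627 CPM at 24 h (log2 fold change 0.44 ± 0.10 (SE), edgeR adjusted p = 0.00425). Of the later enzymes, HSD17B7, SC5D and MSMO1 rose with log2 fold changes of 0.93, 0.86 and 0.78.

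The regulators rose as well. INSIG1, which holds SREBP in the endoplasmic reticulum and is itself an SREBP target, was at 274 and 269.5 CPM at T0 and 375 and 619 CPM at 24 h (log2 fold change 0.87 ± 0.16 (SE), edgeR adjusted p = 0.000873). STARD4, a cytosolic carrier of cholesterol, was at 12.3 and 13.9 CPM at T0 and 20.7 and 34.9 CPM at 24 h (log2 fold change 1.07 ± 0.19 (SE), edgeR adjusted p = 0.000535). SREBF2, the gene of SREBP2, differed by only 0.23 ± 0.05 (SE) on the log2 scale (edgeR adjusted p = 0.00518). In all 20 members that rose, replicate 2 at 24 h was above replicate 1, with a median ratio of 1.44. Without that library 11 members rose, 1 fell and the median was 0.36, and without replicate 1 of the 24 h group 22 rose and the median was 0.93. Of the genes named here the call was lost without T0 replicate 1 for SREBF2 (edgeR adjusted p = 0.0588), without 24 h replicate 2 for HMGCS1, SQLE and SREBF2 (edgeR adjusted p from 0.106 to 0.154).

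Fatty acid synthesis moved the same way in part. Of 16 members tested, 8 rose, 1 fell and 7 were not called, with a median log2 fold change of 0.21, and at 12 h edgeR called none (1 at an unadjusted p under 0.05) and DESeq2 0. ACSS2, which makes acetyl-CoA from acetate, was at 395 and 358 CPM at T0 and 656 and 1549 CPM at 24 h, 2.93 times the T0 level (log2 fold change 1.55 ± 0.30 (SE), edgeR adjusted p = 0.00146). Its 24 h libraries stood far apart, and both lay above both T0 libraries. SCD, the stearoyl-CoA desaturase, was at 4200.1 and 4146 CPM at T0 and 6058 and 9082 CPM at 24 h (log2 fold change 0.86 ± 0.14 (SE), edgeR adjusted p = 0.000265). ACSL1, which activates long-chain fatty acids, was at 289.7 and 295 CPM at T0 and 417 and 577 CPM at 24 h (log2 fold change 0.76 ± 0.09 (SE), edgeR adjusted p = 1.39e-05). FASN, fatty acid synthase, was at 4655 and 4629 CPM at T0 and 5734 and 7340.2 CPM at 24 h (log2 fold change 0.49 ± 0.10 (SE), edgeR adjusted p = 0.00155). FADS1 and FADS2, desaturases of polyunsaturated fatty acids whose genes overlap in RefSeq, rose by log2 fold changes of 0.74 and 0.58, and reads from the overlap cannot be assigned to either with certainty. ACLY, ATP citrate lyase, rose by 0.60 ± 0.15 (SE; edgeR adjusted p = 0.00811). The member that fell was ACSL3, a further acyl-CoA synthetase, at 628 and 628 CPM at T0 and 476 and 517 CPM at 24 h (log2 fold change -0.34 ± 0.05 (SE), edgeR adjusted p = 4.16e-05). Replicate 2 exceeded replicate 1 at 24 h in all 8 that rose (median ratio 1.46), and 5 rose and 1 fell without it. Fatty acid oxidation and PPAR targets gave 1 call of 16, PPARD, the gene of a lipid-sensing receptor, which fell by 0.28 on the log2 scale (edgeR adjusted p = 0.0327). With a library left out the call was lost without T0 replicate 1 for ACLY and PPARD (edgeR adjusted p from 0.0604 to 0.165), without T0 replicate 2 for ACLY and PPARD (edgeR adjusted p from 0.0543 to 0.103), without 24 h replicate 1 for PPARD (edgeR adjusted p = 0.313), without 24 h replicate 2 for ACSS2 and ACLY (edgeR adjusted p from 0.0706 to 0.29).

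Glycolytic enzymes and HIF targets were the other groups that rose together. Of 22 glycolysis genes tested 15 rose and none fell, with a median log2 fold change of 0.55. Of 17 HIF targets outside glycolysis 12 rose and 1 fell, with a median of 0.70. At 12 h against T0 edgeR called none (6 at an unadjusted p under 0.05) and DESeq2 0 of the glycolysis genes, and edgeR called none (3 at an unadjusted p under 0.05) and DESeq2 0 of the HIF targets. The promoters of CA9 and ENO2, the called members of the 2 lists with large changes and a HIF-type core in this window, are shown as RefSeq gives them (GRCh38.p14). Capitals mark TACGTG or its reverse complement CACGTA, and no other motif is marked.
CA9 promoter, chr9:35673678-35673977, plus strand: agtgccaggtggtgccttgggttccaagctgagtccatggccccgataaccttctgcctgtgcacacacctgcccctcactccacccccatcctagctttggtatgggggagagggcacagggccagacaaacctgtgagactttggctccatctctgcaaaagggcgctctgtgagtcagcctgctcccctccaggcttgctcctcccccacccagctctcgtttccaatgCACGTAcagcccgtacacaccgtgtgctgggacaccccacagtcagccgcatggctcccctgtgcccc
ENO2 promoter, chr12:6914330-6914629, plus strand: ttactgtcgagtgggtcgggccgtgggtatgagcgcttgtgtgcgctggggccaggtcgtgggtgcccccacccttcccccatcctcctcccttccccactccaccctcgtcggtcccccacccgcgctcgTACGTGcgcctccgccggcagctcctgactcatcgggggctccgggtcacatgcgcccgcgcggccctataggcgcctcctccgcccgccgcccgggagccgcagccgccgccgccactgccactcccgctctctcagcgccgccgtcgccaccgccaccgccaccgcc
TACGTG stood on either strand in 6 of the 33 tested members with a RefSeq promoter (18.2%) and in 3.33% of all 27305 promoters. The other 27 members hold other letters in this window, which says nothing of sites elsewhere.

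CA9, the carbonic anhydrase widely used as a mark of low oxygen, was at 8.41 and 7.98 CPM at T0 and 17.1 and 38.6 CPM at 24 h, 3.37 times the T0 level (log2 fold change 1.75 ± 0.34 (SE), edgeR adjusted p = 0.00147). ADM, the vasodilator peptide adrenomedullin, was at 3.59 and 2.80 CPM at T0 and 8.45 and 15.6 CPM at 24 h (log2 fold change 1.91 ± 0.32 (SE), edgeR adjusted p = 0.000323). NDRG1, a stress-responsive gene, was at 507 and 502 CPM at T0 and 924 and 1304 CPM at 24 h (log2 fold change 1.14 ± 0.19 (SE), edgeR adjusted p = 0.000358). In these 3 genes no 24 h library overlapped T0, and in the 12 h libraries replicate 2 was likewise the higher, with NDRG1 at 497 and 716 CPM at 12 h. VEGFA, the angiogenic factor, was at 273 and 267 CPM at T0 and 457 and 536 CPM at 24 h (log2 fold change 0.88 ± 0.10 (SE), edgeR adjusted p = 4.67e-06). EGLN3, a prolyl hydroxylase that marks HIF for decay, was at 203 and 208 CPM at T0 and 321 and 456 CPM at 24 h (log2 fold change 0.92 ± 0.16 (SE), edgeR adjusted p = 0.000569). PDK1, the kinase that closes pyruvate dehydrogenase, was at 61.2 and 60.04 CPM at T0 and 104 and 136 CPM at 24 h (log2 fold change 0.99 ± 0.17 (SE), edgeR adjusted p = 0.000389). BNIP3 and BNIP3L, receptors for the removal of mitochondria, rose by 0.70 and 0.87 on the log2 scale, and P4HA1, a collagen prolyl hydroxylase, by 0.86. HIF1A, the transcript of the factor itself, was the member that fell, at 257 and 242 CPM at T0 and 213 and 215 CPM at 24 h (log2 fold change -0.22 ± 0.05 (SE), edgeR adjusted p = 0.00426). HIF1A overlaps antisense genes, and the strand setting of the counting is not given in the sources used here.

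Of the glycolytic genes, ENO2, gamma enolase, was at 13.97 and 13.6 CPM at T0 and 40.6 and 50.01 CPM at 24 h, 3.28 times the T0 level (log2 fold change 1.72 ± 0.15 (SE), edgeR adjusted p = 3.51e-07). PFKP, a phosphofructokinase, was at 114 and 114 CPM at T0 and 190.3 and 246 CPM at 24 h (log2 fold change 0.94 ± 0.13 (SE), edgeR adjusted p = 6.51e-05). PGK1, phosphoglycerate kinase, was at 969.7 and 955 CPM at T0 and 1264 and 2035 CPM at 24 h (log2 fold change 0.78 ± 0.18 (SE), edgeR adjusted p = 0.0066). All 3 genes had both 24 h libraries above T0. PFKFB4, which sets the level of the activator fructose 2,6-bisphosphate, was at 72.5 and 70.5 CPM at T0 and 114 and 172 CPM at 24 h (log2 fold change 1.00 ± 0.18 (SE), edgeR adjusted p = 0.000712). HK2, hexokinase, rose by 0.64 ± 0.17 (SE; edgeR adjusted p = 0.0168) and LDHA, lactate dehydrogenase, by 0.77 ± 0.13 (SE; edgeR adjusted p = 0.000345), although LDHA has a second row in the table under the same name, so its reads may be split. SLC2A1, the main glucose transporter, was at 139 and 129.9 CPM at T0 and 153 and 199 CPM at 24 h (log2 fold change 0.38 ± 0.13 (SE), edgeR adjusted p = 0.0455), and DESeq2 did not call it. PKM, pyruvate kinase, was not called, at 2183 and 2139 CPM at T0 and 2284 and 2765 CPM at 24 h (log2 fold change 0.22, edgeR adjusted p = 0.0701), although fits of the 4 libraries alone and of all 40 called it. Replicate 2 exceeded replicate 1 at 24 h in all 15 risen glycolysis genes (median ratio 1.32) and all 12 risen HIF targets (median ratio 1.31). Glycolysis calls fell from 15 to 6 without T0 replicate 1, to 6 without T0 replicate 2 and to 6 without 24 h replicate 2, where the median was 0.30, and 17 rose without 24 h replicate 1. HIF calls were 10 higher without 24 h replicate 2, with a median of 0.47. Of the genes named in both lists the call was lost without T0 replicate 1 for BNIP3, HIF1A, PGK1, HK2 and SLC2A1 (edgeR adjusted p from 0.0546 to 0.121), without T0 replicate 2 for BNIP3, PGK1, HK2 and SLC2A1 (edgeR adjusted p from 0.0543 to 0.22), without 24 h replicate 2 for BNIP3, PGK1, HK2 and SLC2A1 (edgeR adjusted p from 0.198 to 0.46).

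**Figure D2:**
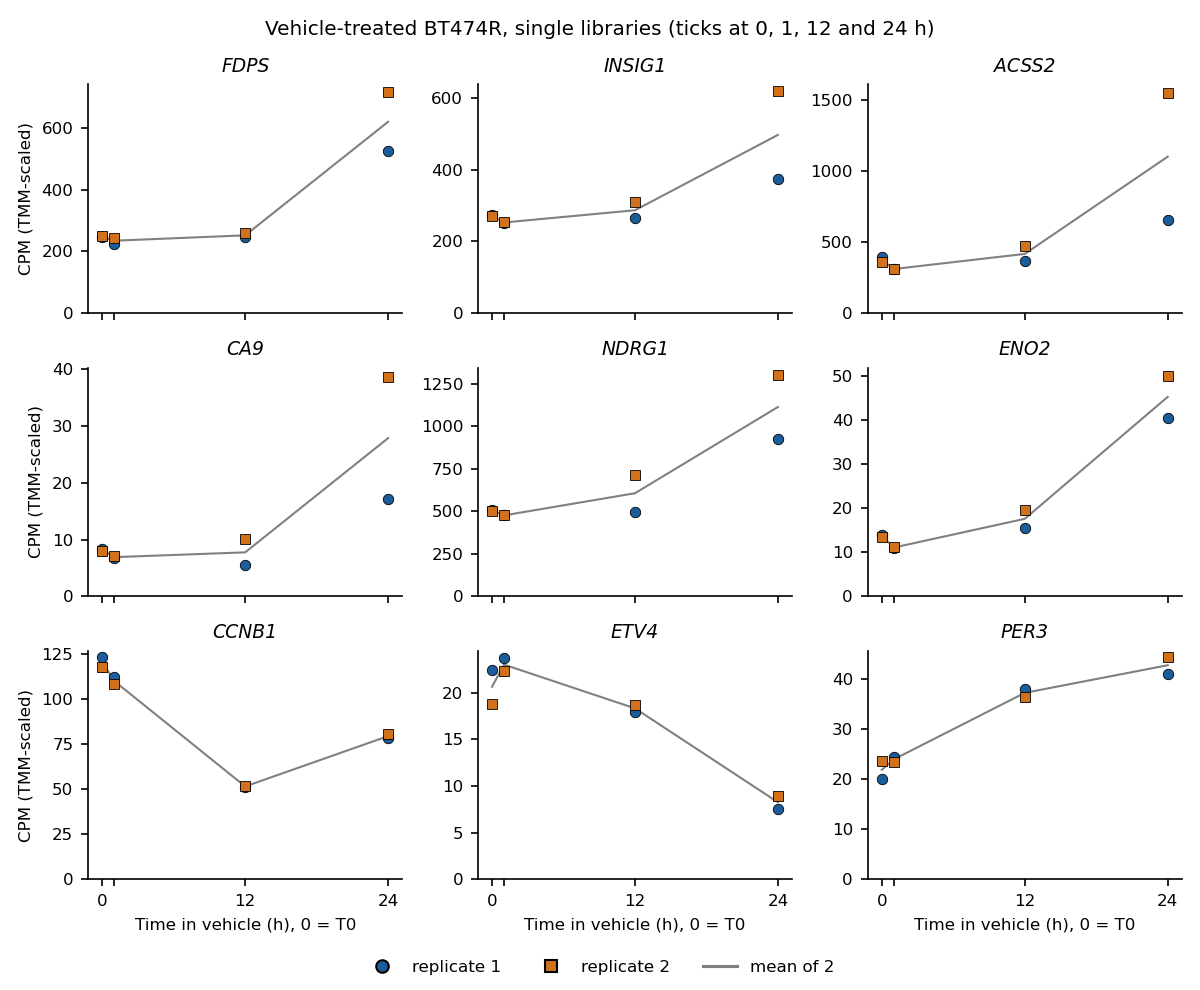
CPM of 9 genes in each vehicle-treated BT474R library at T0, 1 h, 12 h and 24 h, with replicate 1 as circles, replicate 2 as squares and a line through the means of 2; every vertical axis starts at 0. FDPS, INSIG1, ACSS2, CA9, NDRG1 and ENO2 lay above T0 at 24 h. At 12 h FDPS was close to T0, while replicate 2 of NDRG1 was already above it. CCNB1 was lowest at 12 h, ETV4 was lowest at 24 h and PER3 was already raised at 12 h.

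Some of the transcripts that ERK signalling induces were lower at 24 h. At 1 h of vehicle the mean log2 ratio to T0 over this list, on log2(CPM + 1), had been 0.32 and 0.31 in the 2 libraries. Of 19 members of the list, 8 fell, 1 rose and 10 were not called (median log2 fold change -0.32), and at 12 h edgeR called none (2 at an unadjusted p under 0.05) and DESeq2 0. ETV4, a PEA3-type transcription factor that ERK drives, was at 22.5 and 18.8 CPM at T0 and 7.56 and 8.98 CPM at 24 h, 0.400 times the T0 level (log2 fold change -1.32 ± 0.22 (SE), edgeR adjusted p = 0.000375). Its relative ETV5 was at 45.7 and 40.1 CPM at T0 and 28.4 and 29.8 CPM at 24 h (log2 fold change -0.56 ± 0.10 (SE), edgeR adjusted p = 0.000566). The ERK phosphatase DUSP6 was at 98.2 and 89.3 CPM at T0 and 57.02 and 58.3 CPM at 24 h (log2 fold change -0.70 ± 0.11 (SE), edgeR adjusted p = 0.000191). The inhibitor SPRY4 was at 53.2 and 46.5 CPM at T0 and 27.4 and 25.1 CPM at 24 h (log2 fold change -0.92 ± 0.11 (SE), edgeR adjusted p = 9.79e-06). In these 4 genes every 24 h library lay under both T0 libraries, while the 12 h libraries lay near T0, with SPRY4 at 49.3 and 45.8 CPM at 12 h. The remaining calls were EPHA2, an ephrin receptor (log2 fold change -1.22), SPRED1 and SPRED2, inhibitors of RAS (-0.35 and -0.32), and ERRFI1, an inhibitor of the ERBB kinases (-0.38). SPRY1, of the same family as SPRY4, was the member that rose, at 17.04 and 15.2 CPM at T0 and 19.2 and 24.1 CPM at 24 h (log2 fold change 0.42 ± 0.11 (SE), edgeR adjusted p = 0.0112). DUSP4 was not called, at 1295 and 1252 CPM at T0 and 1152 and 1324 CPM at 24 h. ETV4 overlaps DHX8 in RefSeq. Without T0 replicate 2 and without 24 h replicate 1, 5 members fell. Calls were lost without T0 replicate 2 for EPHA2, SPRED1, ERRFI1 and SPRY1 (edgeR adjusted p from 0.0532 to 0.14), without 24 h replicate 1 for EPHA2, SPRED1 and ERRFI1 (edgeR adjusted p from 0.0501 to 0.175), without 24 h replicate 2 for SPRY1 (edgeR adjusted p = 0.175).

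Immediate early genes did not move as a group, with 5 risen and 2 fallen of 24 (median 0.12), and 2 rose without T0 replicate 1 or 24 h replicate 2 and 3 without T0 replicate 2. The mean log2 ratio to T0 over the immediate early list, on log2(CPM + 1), had been 1.00 and 1.06 in the 1 h vehicle libraries. At 12 h it was 0.04 and 0.11. MYC, the growth-promoting factor, was at 3.71 and 3.79 CPM at T0 and 1.19 and 1.93 CPM at 24 h, 0.408 times the T0 level (log2 fold change -1.29 ± 0.25 (SE), edgeR adjusted p = 0.00134). The AP-1 members JUN, JUND and FOSL2 rose by 0.39, 0.56 and 0.41 on the log2 scale, with JUND at 124 and 127 CPM at T0 and 159 and 212 CPM at 24 h (log2 fold change 0.56 ± 0.09 (SE), edgeR adjusted p = 0.000279). KLF6, a zinc finger factor, rose by 0.35 and IER5 fell by 0.52. Ribosome biogenesis genes were lower, with 16 of 25 fallen and none risen (median -0.27), and at 12 h edgeR called none (1 at an unadjusted p under 0.05) and DESeq2 0. UTP20, of the complex that processes the small subunit RNA, was at 71.99 and 77.3 CPM at T0 and 54.4 and 48.6 CPM at 24 h (log2 fold change -0.54 ± 0.08 (SE), edgeR adjusted p = 0.00021). DKC1, the pseudouridine synthase dyskerin, was at 100.5 and 93.3 CPM at T0 and 72.1 and 72.5 CPM at 24 h (log2 fold change -0.42 ± 0.07 (SE), edgeR adjusted p = 0.000169). NOP2, a ribosomal RNA methyltransferase, was at 67.5 and 64.8 CPM at T0 and 51.5 and 47.8 CPM at 24 h (log2 fold change -0.41 ± 0.06 (SE), edgeR adjusted p = 0.000136). The fallen members were 0.690 to 0.873 times their T0 level, and the groups did not overlap in these 3 genes. Without T0 replicate 1 and without T0 replicate 2, 10 members fell. Of 77 cytosolic ribosomal proteins 5 fell and 2 rose (median -0.03), against 6.83% of all genes in each direction, and 1, none and 2 fell without T0 replicate 1, T0 replicate 2 and 24 h replicate 1 in turn. Without single libraries the call was lost without T0 replicate 1 for FOSL2, KLF6 and IER5 (edgeR adjusted p from 0.0503 to 0.054), without T0 replicate 2 for JUN and IER5 (edgeR adjusted p from 0.0595 to 0.0704), without 24 h replicate 1 for IER5 (edgeR adjusted p = 0.124), without 24 h replicate 2 for JUN, FOSL2 and KLF6 (edgeR adjusted p from 0.0507 to 0.141).

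Genes of DNA replication and of mitosis went opposite ways. Of 38 replication genes 19 rose and none fell (median 0.29), and of 33 mitotic genes 15 fell and none rose (median -0.20). At 12 h against T0, 10 replication genes rose and 32 of the 33 mitotic genes fell, with a median of -0.92. Between 12 h and 24 h all 33 mitotic genes rose (median 0.73), so that the 24 h level was a partial return from a lower point. The promoters of CDC20 and PLK1 are shown because the mitotic list fell together at 12 h. Capitals mark TTTGAA or its reverse complement TTCAAA, the letters of the cell cycle homology region bound by DREAM and MMB.
CDC20 promoter, chr1:43358731-43359030, plus strand: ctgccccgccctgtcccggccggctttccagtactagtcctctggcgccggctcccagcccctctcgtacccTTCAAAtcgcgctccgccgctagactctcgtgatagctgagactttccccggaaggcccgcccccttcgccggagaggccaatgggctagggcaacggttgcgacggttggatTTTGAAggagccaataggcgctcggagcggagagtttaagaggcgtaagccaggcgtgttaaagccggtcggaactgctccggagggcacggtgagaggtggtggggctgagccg
PLK1 promoter, chr16:23678639-23678938, plus strand: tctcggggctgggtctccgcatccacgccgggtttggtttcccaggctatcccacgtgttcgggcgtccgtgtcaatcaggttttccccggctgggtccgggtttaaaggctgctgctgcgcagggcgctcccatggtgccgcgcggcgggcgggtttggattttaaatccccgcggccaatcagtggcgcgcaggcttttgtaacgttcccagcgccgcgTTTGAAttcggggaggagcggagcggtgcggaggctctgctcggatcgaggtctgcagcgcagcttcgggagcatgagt
These letters stood on either strand in 19 of the 27 mitotic members with a RefSeq promoter (70.4%) and in 15.4% of all 27305 promoters. The CDC20 and PLK1 windows also hold CCAAT, which is not marked.

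CCNB1, cyclin B1, was at 123 and 118 CPM at T0 and 78.4 and 80.3 CPM at 24 h, with 51 and 51.99 CPM at 12 h in between. Its 12 h level was below T0 (log2 fold change -1.22 ± 0.06 (SE), edgeR adjusted p = 1.69e-11), its 24 h level above 12 h (log2 fold change 0.62 ± 0.06 (SE), edgeR adjusted p = 4.39e-07), and its 24 h level still below T0 (log2 fold change -0.60 ± 0.06 (SE), edgeR adjusted p = 8.99e-07). The 3 pairs of libraries did not overlap. CDC20, the activator of the anaphase-promoting complex, was at 90.5 and 87.8 CPM at T0 and 57.4 and 56.4 CPM at 24 h, with 39.3 and 36.2 CPM at 12 h (log2 fold change -0.65 ± 0.06 (SE), edgeR adjusted p = 8.36e-07). PLK1, the mitotic kinase, was at 74.5 and 80.7 CPM at T0 and 47.5 and 54.6 CPM at 24 h, with 27.7 and 30.9 CPM at 12 h (log2 fold change -0.61 ± 0.10 (SE), edgeR adjusted p = 0.000265). CENPF, a kinetochore protein, was at 450.1 and 456 CPM at T0 and 321 and 327 CPM at 24 h, with 194 and 193 CPM at 12 h (log2 fold change -0.48 ± 0.07 (SE), edgeR adjusted p = 6.53e-05). RRM2, the small subunit of ribonucleotide reductase, rose most in the replication list, at 235 and 220.5 CPM at T0 and 318 and 412 CPM at 24 h, with 284 and 307 CPM at 12 h (log2 fold change 0.68 ± 0.09 (SE), edgeR adjusted p = 2.28e-05). CCNE2, cyclin E2, was at 17.5 and 16.6 CPM at T0 and 23.2 and 24.1 CPM at 24 h, with 26.6 and 25 CPM at 12 h (log2 fold change 0.47 ± 0.08 (SE), edgeR adjusted p = 0.00047). PCNA, the sliding clamp, was at 86.7 and 82.4 CPM at T0 and 98.03 and 121 CPM at 24 h (log2 fold change 0.37 ± 0.07 (SE), edgeR adjusted p = 0.00177), and both 24 h libraries of RRM2, CCNE2 and PCNA lay above both T0 libraries.

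Replication calls depended on the library, with 7 risen without T0 replicate 2 (median 0.20), 7 without 24 h replicate 2 (median 0.14), 15 without T0 replicate 1 and 22 without 24 h replicate 1. Mitotic calls were 14 to 16 lower whichever library was left out. Among G1 cyclins and CDK inhibitors 4 rose and 2 fell of 16. For this list and for the p53 targets below, the share of all genes was 6.83% in each direction. CDKN1A, the inhibitor p21, was at 11.5 and 9.38 CPM at T0 and 12.6 and 26.1 CPM at 24 h (log2 fold change 0.88 ± 0.28 (SE), edgeR adjusted p = 0.0432), and its replicate 1 at 24 h lay close to T0. CDKN2D, the inhibitor p19, was at 10.1 and 11.6 CPM at T0 and 18.7 and 16.3 CPM at 24 h (log2 fold change 0.68 ± 0.18 (SE), edgeR adjusted p = 0.0128). CDK6, a G1 kinase, was at 18.03 and 14.7 CPM at T0 and 11.4 and 11.1 CPM at 24 h (log2 fold change -0.53 ± 0.12 (SE), edgeR adjusted p = 0.00425). CDK2, the kinase of cyclin E, was at 65.7 and 65.9 CPM at T0 and 78.7 and 84.5 CPM at 24 h (log2 fold change 0.31 ± 0.06 (SE), edgeR adjusted p = 0.00116). Of 20 p53 targets 4 rose and 1 fell, AEN, a nuclease of apoptosis, with a log2 fold change of -0.80. The mean log2 ratio to T0 over the p53 list, on log2(CPM + 1), had been 0.73 and 0.79 in the 1 h vehicle libraries. At 12 h it was -0.02 and 0.02. No p53 target rose without T0 replicate 1 or without T0 replicate 2, 2 rose without 24 h replicate 1 and 1 without 24 h replicate 2. The G1 list had 2 higher and none lower without T0 replicate 1. Leaving out 1 library lost the call without T0 replicate 1 for CDKN1A, CDKN2D and CDK6 (edgeR adjusted p from 0.105 to 0.139), without T0 replicate 2 for CDKN1A (edgeR adjusted p = 0.257), without 24 h replicate 1 for CDKN2D (edgeR adjusted p = 0.122), without 24 h replicate 2 for CDKN1A (edgeR adjusted p = 0.601).

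**Figure D3:**
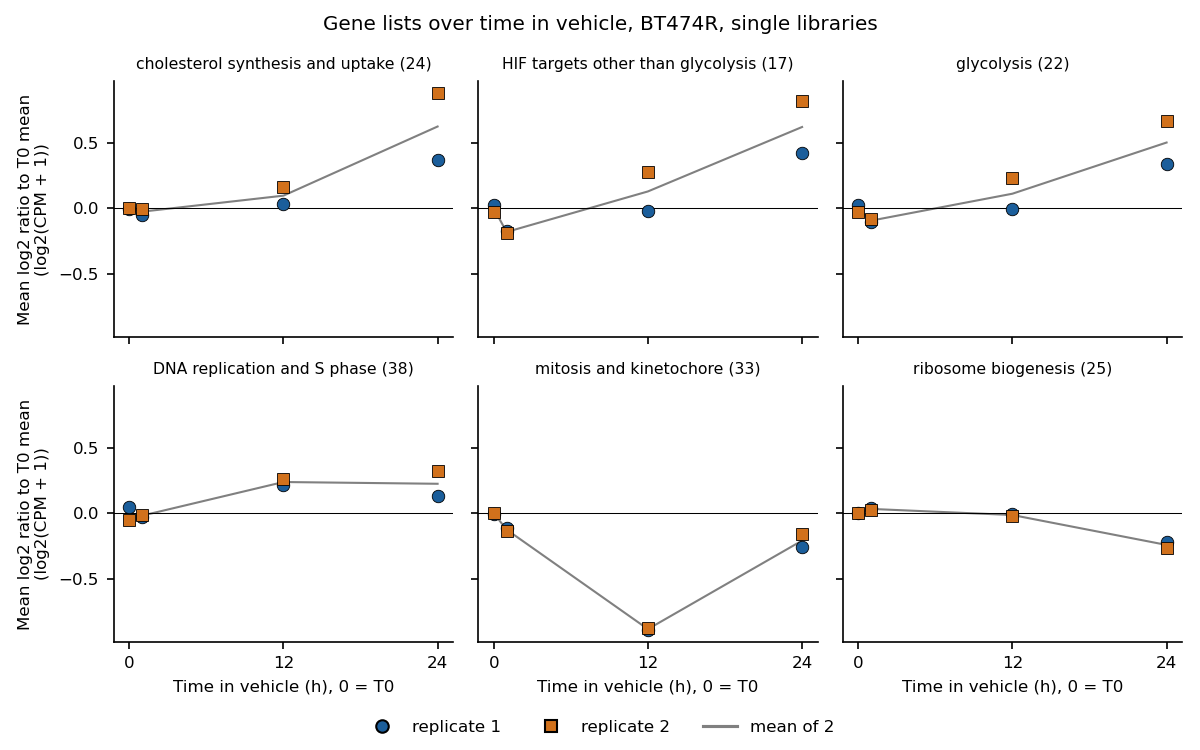
Mean log2 ratio to the T0 mean, on log2(CPM + 1), over all tested members of 6 gene lists in each vehicle-treated BT474R library, against the time in vehicle in hours; circles are replicate 1, squares replicate 2, and the line joins the means of 2. Mitotic genes were lowest at 12 h, replication genes were raised from 12 h, and sterol, HIF and glycolytic genes were highest at 24 h with replicate 2 above replicate 1.

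Several clock genes were higher. Of 20 clock genes tested 7 rose and 2 fell at 24 h (median 0.25), and 3 rose at 12 h. Among all genes 6.83% were called in each direction at 24 h, and 0.354% were called higher at 12 h. PER3, a repressor of the clock, was at 20.1 and 23.6 CPM at T0 and 41.04 and 44.3 CPM at 24 h, with 38.02 and 36.3 CPM at 12 h (log2 fold change 0.96 ± 0.09 (SE), edgeR adjusted p = 5.79e-07). It had already risen at 12 h (log2 fold change 0.76 ± 0.09 (SE), edgeR adjusted p = 8.78e-06). TEF, a PAR bZIP output factor, was at 18.1 and 23.7 CPM at T0 and 46.1 and 42.5 CPM at 24 h, with 35.5 and 36.2 CPM at 12 h (log2 fold change 1.07 ± 0.14 (SE), edgeR adjusted p = 2.53e-05). PER1 was at 5.16 and 5.73 CPM at T0 and 10.5 and 13.7 CPM at 24 h (log2 fold change 1.14 ± 0.21 (SE), edgeR adjusted p = 0.000886), and here the 12 h libraries were at 5.95 and 8.60 CPM (edgeR adjusted p = 0.563). BHLHE40, a repressor that also answers to HIF, was at 39.6 and 38.7 CPM at T0 and 67.6 and 106 CPM at 24 h (log2 fold change 1.14 ± 0.19 (SE), edgeR adjusted p = 0.000309). NR1D1 and DBP, both low, rose by 0.99 and 0.54, and NR1D1 overlaps THRA and DBP overlaps SPHK2. CRY1, a core repressor, fell, at 37.6 and 39.4 CPM at T0 and 29.7 and 30.6 CPM at 24 h (log2 fold change -0.36 ± 0.07 (SE), edgeR adjusted p = 0.00146), as did NPAS2, a partner in the activator (log2 fold change -0.45, edgeR adjusted p = 0.0432). CLOCK was at 103 and 117 CPM at T0 and 116 and 118 CPM at 24 h and was not called. With a library left out the call was lost without T0 replicate 1 for DBP and NPAS2 (edgeR adjusted p from 0.142 to 0.205), without T0 replicate 2 for DBP and NPAS2 (edgeR adjusted p from 0.119 to 0.179), without 24 h replicate 1 for NPAS2 (edgeR adjusted p = 0.355), without 24 h replicate 2 for NR1D1 and DBP (edgeR adjusted p from 0.0553 to 0.539).

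The ERBB receptors changed unequally. ERBB2 was at 9141 and 8836 CPM at T0 and 6831 and 7112 CPM at 24 h, 0.776 times the T0 level (log2 fold change -0.37 ± 0.05 (SE), edgeR adjusted p = 1.47e-05). EGFR, the receptor of EGF, was at 635 and 676 CPM at T0 and 985 and 1187 CPM at 24 h (log2 fold change 0.73 ± 0.09 (SE), edgeR adjusted p = 2.49e-05). ERBB4 was at 10.8 and 11.3 CPM at T0 and 15.5 and 14 CPM at 24 h (log2 fold change 0.42 ± 0.11 (SE), edgeR adjusted p = 0.013). In these 3 genes the groups did not overlap, and ERBB3 was not called, at 337 and 329 CPM at T0 and 307 and 334 CPM at 24 h (log2 fold change -0.06, edgeR adjusted p = 0.619). Of the 17 members tested in the list, which also holds the ligands and the amplicon neighbours, these were the 3 calls, beside 13.7% of all genes. The neighbour GRB7 was at 776 and 697 CPM at T0 and 643 and 637 CPM at 24 h (edgeR adjusted p = 0.112). GRB7 was called in the fits of 4 and of 40 libraries. ERBB2 overlaps MIEN1, a neighbour that was not called. Estrogen receptor targets gave 2 higher and 3 lower of 18, and 1 was higher without T0 replicate 1, T0 replicate 2 or 24 h replicate 2. ESR1, the receptor, was at 95.2 and 99.7 CPM at T0 and 107 and 92.2 CPM at 24 h (edgeR adjusted p = 0.873). RET, a receptor tyrosine kinase induced by estrogen, was at 377 and 367 CPM at T0 and 259 and 290.1 CPM at 24 h (log2 fold change -0.44 ± 0.06 (SE), edgeR adjusted p = 8.87e-05). AGR2, a disulfide isomerase of secretory cells, was at 239.6 and 232 CPM at T0 and 167 and 187 CPM at 24 h (log2 fold change -0.41 ± 0.07 (SE), edgeR adjusted p = 0.000664). STC2, a secreted glycoprotein, rose, at 36.4 and 40.7 CPM at T0 and 65.8 and 72.6 CPM at 24 h (log2 fold change 0.84 ± 0.10 (SE), edgeR adjusted p = 1.47e-05). Androgen and glucocorticoid receptors and targets gave 3 higher and 3 lower of 17, with TMPRSS2, a serine protease, at 65.1 and 64.7 CPM at T0 and 46.2 and 51.5 CPM at 24 h (log2 fold change -0.41 ± 0.07 (SE), edgeR adjusted p = 0.000765). This count and that of the estrogen receptor targets stand beside 6.83% of all genes in each direction. Some of these calls were lost without T0 replicate 1 for ERBB4 (edgeR adjusted p = 0.113), without T0 replicate 2 for ERBB4 (edgeR adjusted p = 0.0638), without 24 h replicate 1 for ERBB4 (edgeR adjusted p = 0.155).

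Luminal identity genes gave 2 higher and 5 lower of 16. For this and the other lists in this paragraph, the share of all genes was 6.83% in each direction. FOXA1, a pioneer factor of luminal cells, was at 582 and 541 CPM at T0 and 473 and 493 CPM at 24 h (log2 fold change -0.22 ± 0.05 (SE), edgeR adjusted p = 0.00329) and SPDEF, an ETS factor of secretory epithelium, at 347 and 331 CPM at T0 and 249 and 278 CPM at 24 h (log2 fold change -0.36 ± 0.08 (SE), edgeR adjusted p = 0.00288). Most of the list's lower calls were lost without T0 replicate 1, without T0 replicate 2 or without 24 h replicate 1. Without 24 h replicate 2 they were not. The median log2 fold change of the list was -0.02, -0.09, -0.03 and -0.14 in these fits in turn. Basal and squamous keratins gave 2 higher of 16, KRT80 and SFN, the latter the inhibitor 14-3-3 sigma, at 77.2 and 75.5 CPM at T0 and 100.7 and 148 CPM at 24 h (log2 fold change 0.70 ± 0.12 (SE), edgeR adjusted p = 0.000315). Secretory products gave 2 higher and 2 lower of 17, with AZGP1, a lipid-mobilising glycoprotein, at 11.8 and 12.4 CPM at T0 and 7.49 and 9.26 CPM at 24 h (log2 fold change -0.54 ± 0.13 (SE), edgeR adjusted p = 0.00552). Without T0 replicate 2 the secretory list had no call, without 24 h replicate 1 it had 1, and without T0 replicate 1 or 24 h replicate 2 it had 1 in each direction. Of 10 mesenchymal genes only VIM, the filament protein vimentin, was called, at 29.6 and 29.1 CPM at T0 and 72.9 and 92.4 CPM at 24 h, 2.81 times the T0 level (log2 fold change 1.49 ± 0.11 (SE), edgeR adjusted p = 5.59e-08), and it was also called at 12 h, at 36.2 and 44.8 CPM (edgeR adjusted p = 0.0376). VIM overlaps its antisense gene. Among fibroblast, immune and endothelial markers, of which 8 of 15 were tested, COL1A1 rose (log2 fold change 0.51, edgeR adjusted p = 9.79e-06) and CDH5, the cadherin of endothelium, fell from 5.97 and 4.38 CPM to 0.667 and 0.737 CPM (log2 fold change -2.86, edgeR adjusted p = 8.53e-06), with DCN, LUM and CD3E at 0. Calls were lost without T0 replicate 1 for FOXA1 and KRT80 (edgeR adjusted p from 0.0619 to 0.0993), without T0 replicate 2 for AZGP1 (edgeR adjusted p = 0.0656), without 24 h replicate 1 for AZGP1 (edgeR adjusted p = 0.0995), without 24 h replicate 2 for KRT80 (edgeR adjusted p = 0.0532).

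Targets of the FOXO factors and of PI3K feedback rose in 7 of 20 members and fell in 1 (median 0.18), and at 12 h edgeR called none (2 at an unadjusted p under 0.05) and DESeq2 0. CCNG2, a cyclin of arrested cells, was at 455 and 484 CPM at T0 and 609 and 746 CPM at 24 h (log2 fold change 0.53 ± 0.07 (SE), edgeR adjusted p = 2.99e-05). KLHL24, a ubiquitin ligase adaptor, was at 88.4 and 89.9 CPM at T0 and 117 and 135 CPM at 24 h (log2 fold change 0.50 ± 0.07 (SE), edgeR adjusted p = 7.59e-05). CITED2, a competitor of HIF for its coactivator, was at 44.5 and 50.8 CPM at T0 and 63.7 and 83.8 CPM at 24 h (log2 fold change 0.62 ± 0.11 (SE), edgeR adjusted p = 0.00039). PIK3IP1, an inhibitor of PI3K, was at 18.03 and 18.1 CPM at T0 and 22.8 and 36.6 CPM at 24 h (log2 fold change 0.71 ± 0.20 (SE), edgeR adjusted p = 0.023), and in these 4 genes both 24 h libraries were above T0. Without T0 replicate 1, T0 replicate 2 or 24 h replicate 2, 3 members rose. Autophagy and lysosome genes rose in 10 of 26 and fell in 2 (median 0.19). For this and the other lists in this paragraph, the share of all genes was 6.83% in each direction. ULK1, the kinase that starts autophagy, was at 237 and 243 CPM at T0 and 296 and 354 CPM at 24 h (log2 fold change 0.44 ± 0.08 (SE), edgeR adjusted p = 0.000457). HEXA, a lysosomal hexosaminidase, was at 96.6 and 92.4 CPM at T0 and 124 and 119 CPM at 24 h (log2 fold change 0.36 ± 0.07 (SE), edgeR adjusted p = 0.00158). CTSB, the protease cathepsin B, fell, at 37.04 and 34.2 CPM at T0 and 26.7 and 29.6 CPM at 24 h (log2 fold change -0.34 ± 0.08 (SE), edgeR adjusted p = 0.00718). The count was 5 higher without T0 replicate 1. The integrated stress response and amino acid supply list rose in 6 of 27 and fell in 1 (median 0.11). Its risen members included DDIT4, an mTORC1 inhibitor that also answers to HIF, at 102 and 104 CPM at T0 and 175 and 256 CPM at 24 h (log2 fold change 1.06 ± 0.17 (SE), edgeR adjusted p = 0.000237), and VLDLR, a lipoprotein receptor, at 19.9 and 19.1 CPM at T0 and 28.7 and 35.9 CPM at 24 h (log2 fold change 0.72 ± 0.11 (SE), edgeR adjusted p = 0.000131). Without single libraries the call was lost without T0 replicate 1 for PIK3IP1 and CTSB (edgeR adjusted p from 0.0996 to 0.118), without T0 replicate 2 for PIK3IP1 (edgeR adjusted p = 0.112), without 24 h replicate 1 for CTSB (edgeR adjusted p = 0.0929), without 24 h replicate 2 for PIK3IP1 (edgeR adjusted p = 0.361).

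NRF2 targets were lower in 6 of 17 and higher in 1 (median -0.16). NQO1, a quinone reductase, was at 183 and 177 CPM at T0 and 127 and 135 CPM at 24 h (log2 fold change -0.46 ± 0.05 (SE), edgeR adjusted p = 3.03e-06). HMOX1, heme oxygenase, was the member that rose, at 2.20 and 2.21 CPM at T0 and 4.34 and 4.51 CPM at 24 h (log2 fold change 1.00 ± 0.21 (SE), edgeR adjusted p = 0.00254). The NRF2 count was 3 lower without T0 replicate 1, 2 without T0 replicate 2, 2 without 24 h replicate 1 and 7 without 24 h replicate 2. Nuclear genes of oxidative phosphorylation fell in 7 of 35 with none risen (median -0.11), all by less than the median called gene. That count was 2 without T0 replicate 1, 3 without T0 replicate 2, 1 without 24 h replicate 1 and 11 without 24 h replicate 2. Cytosolic and mitochondrial heat shock genes gave 1 higher and 4 lower of 14, with 2 lower without T0 replicate 1, and chaperones of the endoplasmic reticulum 1 higher and 3 lower of 20. TGF-beta, BMP and ID genes gave 5 lower of 17 and none higher (median -0.25), among them TGFB3, a TGF-beta ligand, at 80.8 and 81.3 CPM at T0 and 44.6 and 40.4 CPM at 24 h (log2 fold change -0.93 ± 0.08 (SE), edgeR adjusted p = 1.94e-07), and ID1, an inhibitor of differentiation factors, at 4.81 and 3.70 CPM at T0 and 1.63 and 2.07 CPM at 24 h (log2 fold change -1.20 ± 0.21 (SE), edgeR adjusted p = 0.000452). That list had 2 lower without T0 replicate 1, and without T0 replicate 2 or 24 h replicate 1 it had 3. BCL2 family genes gave 3 higher and 3 lower of 16, YAP and TEAD targets 2 lower of 12, NF-kB targets and chemokines 3 higher of 11, and metallothioneins 1 lower of 5. These counts, and those of the other lists in this paragraph, stand beside 6.83% of all genes in each direction. Without T0 replicate 1, T0 replicate 2 and 24 h replicate 1 in turn 1 NF-kB target was higher, and without T0 replicate 2 there was 1 lower chaperone of the endoplasmic reticulum. In the BCL2 family the calls were 1 and 1 without T0 replicate 1, without T0 replicate 2 and without 24 h replicate 2. Interferon-stimulated genes gave no call of 31 by edgeR's quasi-likelihood test, with 5 at an unadjusted p under 0.05 and 0 by DESeq2, and 2 higher and 1 lower without 24 h replicate 1. ISG15, an interferon-stimulated gene, was at 0.812 and 0.361 CPM at T0 and 0.556 and 0.553 CPM at 24 h. Its log2 fold change had an SE of 0.44, so a moderate change in a gene this low could go uncalled. Of the protein-coding and ribosomal RNA genes of the mitochondrial genome 2 were tested, and they gave no call by edgeR, with 0 at an unadjusted p under 0.05 and 0 by DESeq2. 

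The 15 genes with the largest rise, among called genes with a mean of at least 5 CPM and no overlap between groups, included ADM, CA9, ENO2, ACSS2 and VIM. First in size was CASP14, a caspase of the outer epidermis, at 1.85 and 1.85 CPM at T0 and 6.12 and 10.96 CPM at 24 h (log2 fold change 2.18 ± 0.29 (SE), edgeR adjusted p = 3.72e-05). NRN1, the membrane-anchored neuritin, was at 3.01 and 3.29 CPM at T0 and 11.01 and 16.4 CPM at 24 h (log2 fold change 2.10 ± 0.27 (SE), edgeR adjusted p = 2.39e-05). RRAGD, a Rag GTPase of the lysosomal nutrient sensor, was at 3.30 and 3.92 CPM at T0 and 12.3 and 15.98 CPM at 24 h (log2 fold change 1.95 ± 0.16 (SE), edgeR adjusted p = 1.94e-07). In these 3 genes the 12 h libraries lay near T0, with RRAGD at 4.44 and 4.66 CPM at 12 h. LBHD1 and CSKMT, which overlap each other and of which CSKMT encodes a methyltransferase of citrate synthase, were at 6.03 and 5.41 CPM at T0 and 15.3 and 30.9 CPM at 24 h and at 2.61 and 2.62 CPM at T0 and 5.86 and 13.5 CPM at 24 h, and their reads cannot be told apart with certainty. Their log2 fold changes were 2.01 ± 0.35 and 1.86 ± 0.40 (SE; edgeR adjusted p = 0.00047 and 0.0031). NYNRIN, a gene of retroviral origin, was at 6.67 and 6.23 CPM at T0 and 16.6 and 28.9 CPM at 24 h (log2 fold change 1.81 ± 0.24 (SE), edgeR adjusted p = 3.50e-05). SFXN3, a mitochondrial carrier of the sideroflexin family, was at 15.9 and 16.96 CPM at T0 and 43.1 and 64.7 CPM at 24 h (log2 fold change 1.70 ± 0.18 (SE), edgeR adjusted p = 2.37e-06). SYDE1, a GTPase-activating protein, was at 8.87 and 7.71 CPM at T0 and 20.1 and 25.7 CPM at 24 h (log2 fold change 1.47 ± 0.18 (SE), edgeR adjusted p = 1.47e-05). C6orf223 and the long noncoding RNA SCIRT rose by 1.59 and 1.46 on the log2 scale. Replicate 2 at 24 h was above replicate 1 in 1102 of the 1660 genes that rose. With a library left out the call was lost without T0 replicate 2 for SCIRT (edgeR adjusted p = 0.0579), without 24 h replicate 2 for CSKMT and SCIRT (edgeR adjusted p from 0.0769 to 0.119).

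The 15 genes with the largest fall by the same rule included ETV4. MT2A, a metallothionein that binds zinc and copper, was at 10.03 and 7.13 CPM at T0 and 1.33 and 1.89 CPM at 24 h, 0.188 times the T0 level (log2 fold change -2.41 ± 0.45 (SE), edgeR adjusted p = 0.00091). It lay above T0 in the 12 h libraries, at 18.6 and 25.04 CPM (log2 fold change 1.37 ± 0.30 (SE), edgeR adjusted p = 0.0221). CYP1A1, the monooxygenase that the aryl hydrocarbon receptor induces, was at 23.4 and 35.01 CPM at T0 and 7.49 and 9.63 CPM at 24 h (log2 fold change -1.79 ± 0.21 (SE), edgeR adjusted p = 9.22e-06). Its lowest libraries were those at 12 h, at 2.63 and 3.11 CPM (log2 fold change -3.34 ± 0.24 (SE), edgeR adjusted p = 5.73e-09), so the 24 h level stood between. TCN1, a vitamin B12 carrier, was at 50.4 and 46.1 CPM at T0 and 17.9 and 18.1 CPM at 24 h, with 33.02 and 30.9 CPM at 12 h (log2 fold change -1.42 ± 0.07 (SE), edgeR adjusted p = 8.96e-11). It was called at 12 h too (log2 fold change -0.59 ± 0.07 (SE), edgeR adjusted p = 5.06e-06). AQP3, a channel for water and glycerol, was at 18.95 and 14.9 CPM at T0 and 6.53 and 8.61 CPM at 24 h (log2 fold change -1.17 ± 0.21 (SE), edgeR adjusted p = 0.000823). DHRS3, a retinal reductase, was at 23.5 and 25.5 CPM at T0 and 11.6 and 12.3 CPM at 24 h (log2 fold change -1.04 ± 0.12 (SE), edgeR adjusted p = 1.10e-05). RGS16, a regulator of G protein signalling, was at 7.83 and 6.09 CPM at T0 and 3.34 and 3.91 CPM at 24 h (log2 fold change -0.93 ± 0.21 (SE), edgeR adjusted p = 0.00384), and its 1 h libraries had been at 33.1 and 37.7 CPM. PGBD1, PSTPIP2, PRRT3, PCDH20, SLC13A3, NAV2, STOM and SYT12 fell with log2 fold changes of -1.48, -1.20, -1.09, -1.05, -1.02, -1.01, -0.96 and -0.95, and PRRT3 overlaps its antisense gene. By DESeq2, PGBD1 and PSTPIP2 were not called. Some of these calls were lost without T0 replicate 1 for RGS16, PGBD1, PSTPIP2 and PRRT3 (edgeR adjusted p from 0.0742 to 0.374), without 24 h replicate 1 for PGBD1, PSTPIP2, PRRT3, SLC13A3 and STOM (edgeR adjusted p from 0.0701 to 0.207), without 24 h replicate 2 for PSTPIP2 (edgeR adjusted p = 0.0706).

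The same comparison in the sensitive line shows which changes were larger or smaller in BT474R. In a fit of all 40 libraries BT474 itself had 2177 calls at 24 h against T0, 8.83% of 24641 genes, 1003 higher (4.07%) and 1174 lower (4.76%). The test of the difference between the lines called 1592 genes (6.46%), 762 with a higher log2 fold change in BT474R (3.09%) and 830 with a lower one (3.37%). Without BT474R T0 replicate 1, BT474 T0 replicate 1, BT474 T0 replicate 2 and BT474 24 h replicate 2 in turn the count was 870, 974, 969 and 934. In the cholesterol list 5 members changed more upward in BT474R and 1 more downward, and the list's median in BT474 was 0.30. FDPS had a log2 fold change of 0.28 in BT474 (difference 1.03 ± 0.13 (SE) on the log2 scale, edgeR adjusted p = 1.39e-06). LSS had 0.23 in BT474 (difference 0.90 ± 0.13 (SE) on the log2 scale, edgeR adjusted p = 1.54e-05). In the replication list 13 of 38 members had a lower change in BT474R and none a higher one, with a BT474 median of 0.47, and MCM10, a replication initiation factor, had 0.86 in BT474 and 0.29 in BT474R (difference -0.58 ± 0.10 (SE) on the log2 scale, edgeR adjusted p = 0.000308). Of 33 mitotic genes 3 had a higher change in BT474R and none a lower one.

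Between the lines 1 of 22 glycolysis genes and 3 of 17 HIF targets differed, beside 6.46% of all genes. ENO2 had a log2 fold change of 0.39 in BT474 (difference 1.31 ± 0.20 (SE) on the log2 scale, edgeR adjusted p = 3.06e-05), while NDRG1 had 1.08 (difference 0.05 ± 0.25 (SE) on the log2 scale, edgeR adjusted p = 0.963). In the ERK list 6 of 19 members changed more downward in BT474R and 1 more upward. ETV4 was at 4.37 and 4.16 CPM at T0 and 7.10 and 8.16 CPM at 24 h in BT474, a rise where BT474R fell (difference -2.17 ± 0.29 (SE) on the log2 scale, edgeR adjusted p = 5.12e-06). ETV5 was at 4.91 and 3.86 CPM and 8.42 and 9.26 CPM (difference -1.56 ± 0.18 (SE) on the log2 scale, edgeR adjusted p = 1.95e-07). Of the clock list 6 members changed more upward in BT474R and none less, with PER3 at 0.05 in BT474 (difference 0.90 ± 0.12 (SE) on the log2 scale, edgeR adjusted p = 2.21e-06). Of 77 cytosolic ribosomal proteins 32 had a higher log2 fold change in BT474R and none a lower one, and the median in BT474 was -0.23. Of 20 FOXO and PI3K feedback genes, 8 had a higher change in BT474R.

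Single genes outside these lists differed further. CYP1A1 rose in BT474 from 23.9 and 20.7 CPM to 66.2 and 57.4 CPM, against the fall in BT474R (difference -3.27 ± 0.24 (SE) on the log2 scale, edgeR adjusted p = 1.42e-11). VIM had -0.09 in BT474 (difference 1.56 ± 0.13 (SE) on the log2 scale, edgeR adjusted p = 2.21e-10). NYNRIN had -0.50 in BT474 (difference 2.30 ± 0.29 (SE) on the log2 scale, edgeR adjusted p = 1.89e-06). TH, the tyrosine hydroxylase of catecholamine synthesis, was at 8.64 and 8.80 CPM at T0 and 18.6 and 18.4 CPM at 24 h in BT474R and had -0.70 in BT474 (difference 1.78 ± 0.29 (SE) on the log2 scale, edgeR adjusted p = 7.94e-05). KCND3, a potassium channel, and NOG, the BMP antagonist noggin, had a lower change in BT474R by -1.83 and -1.75 on the log2 scale (edgeR adjusted p = 1.24e-06 and 0.00285), from low levels in BT474. RN7SK, a small nuclear RNA without a normal poly(A) tail, had the largest positive difference (difference 3.09 ± 0.51 (SE) on the log2 scale, edgeR adjusted p = 9.15e-05), and CLEC7A, a lectin receptor, was higher by 1.78 (edgeR adjusted p = 7.69e-05). RN7SK was not called within BT474R, at 5.10 and 6.23 CPM at T0 and 10.3 and 12.8 CPM at 24 h (edgeR adjusted p = 0.116), and in the BT474 T0 libraries it was at 54.1 and 24.4 CPM.

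**Figure D4:**
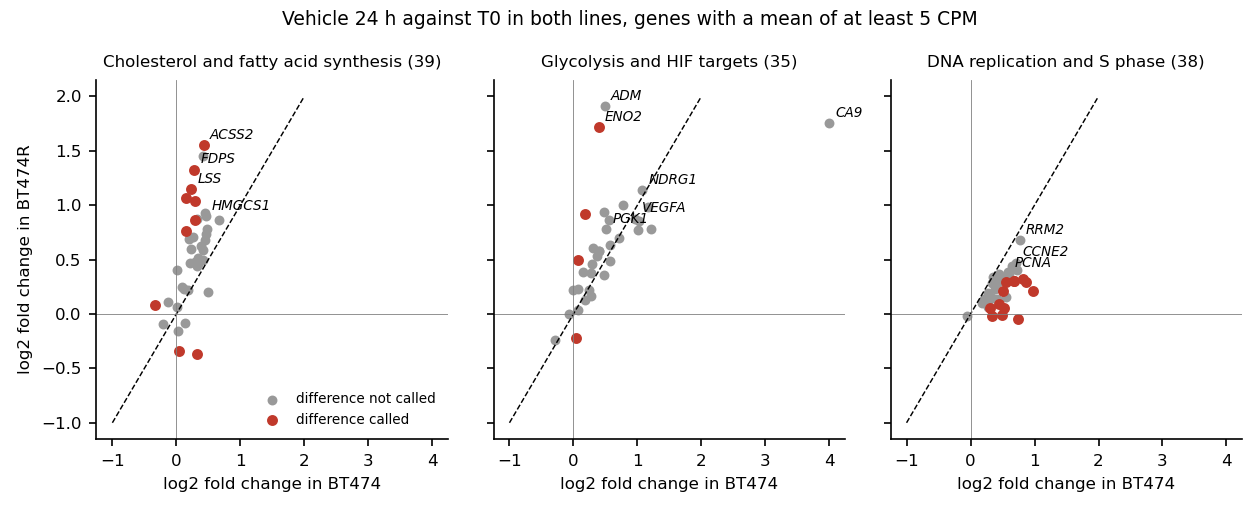
log2 fold change of vehicle 24 h against T0 in BT474R (vertical axis) against BT474 (horizontal axis) for single genes of 3 groups averaging 5 CPM or more over the 4 BT474R libraries; each point is 1 gene, red points passed the test of the difference between lines, and the dashed line marks equal change. Sterol and fatty acid genes lay mostly above the line, glycolysis and HIF genes around it, and replication genes mostly below it.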

How the data were processed

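RNA of serum-starved BT474R cells was sequenced at T0 and after vehicle. Per the labels and the study's methods, the authors trimmed reads with Trim Galore 0.6.6, aligned them to GRCh38.p13 with Rsubread and counted them per gene with featureCounts. The deposited values are raw counts per gene; annotation release, strand setting and treatment of multi-mapping reads are not given in the sources used here. Of all counts, 2.96% sit in rows that repeat a gene name with a number, which were kept as separate rows. Fits used edgeR 4.0.16 in R 4.3.3: TMM scaling, a filter that kept genes counted in 50% or more of the fitted libraries (24287 in the 20 BT474R libraries, 24641 in all 40), the quasi-likelihood test, and Benjamini-Hochberg adjustment over all genes with a threshold of 0.05. The difference between lines was an interaction contrast over all 40 libraries. The main test was checked on simulated counts with 200 genes changed. It recovered 79.5% of them, and 60.3% of those changed by 0.5 on the log2 scale, while 5.92% of its calls were false. The simulation gave all groups the same spread. It therefore cannot check calls against the wider spread of the 24 h duplicates. Log2 fold changes come from these fits. Each standard error was derived as the absolute log2 fold change divided by the square root of the F statistic of the quasi-likelihood test. The text names the 15 called genes per direction with the largest change, a mean of at least 5 CPM over the 4 compared BT474R libraries and groups that do not overlap. For the difference between lines it names 5 per direction by the same rule without the condition on overlap. Members of 36 gene lists are named as well. The members and lists were chosen with earlier results of these data known. Alternatives were DESeq2 1.42.0, other scaling, filters, sets of libraries, equal depth, summed repeat rows, a replicate block and each library left out. Promoters and gene overlaps come from RefSeq (GRCh38.p14), in which 20805 of the 24287 tested symbols were found. Intervals are not given for CPM, and precision at this depth is that of the standard errors. Some members that were tested and counted are not reported by name here.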

Additional observations from a re-analysis of the deposited data

Results flagged for a closer look

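For 65 of the 143 genes named in the text the change from T0 to 24 h of vehicle differed between BT474R and BT474. The test was that of the difference itself (edgeR, quasi-likelihood test of the interaction over all 40 libraries, Benjamini-Hochberg adjustment over 24641 genes). It called 6.46% of all genes. Named genes were partly picked for large changes, 10 of them in this same test, so the 65 do not measure how widely the lines differ. The values below are log2 fold changes in BT474R minus those in BT474, so a positive value is a change further upward in BT474R. Among sterol and fatty acid genes the difference was positive for ACSS2 (1.11), FDPS (1.03), MVD (0.73), LSS (0.90), STARD4 (0.90), SC5D (0.56) and ACSL1 (0.60), and negative for ACSL3 (-0.39) and PPARD (-0.41). Among glycolysis and HIF genes the difference was positive for ENO2 (1.31) and EGLN3 (0.72), and negative for HIF1A (-0.28). Among cell cycle and ribosome genes the difference was negative for UTP20 (-0.43), DKC1 (-0.37), MCM10 (-0.58) and AEN (-0.86). Among ERK-induced and immediate early genes the difference was positive for FOSL2 (0.59), JUN (0.52), JUND (0.50), KLF6 (0.55) and DUSP4 (0.28), and negative for ETV4 (-2.17), ETV5 (-1.56), SPRY4 (-1.28), DUSP6 (-0.89), MYC (-0.91), SPRED1 (-0.44) and SPRED2 (-0.44). Among clock genes the difference was positive for PER1 (1.08), PER3 (0.90), TEF (0.93), NR1D1 (1.35) and DBP (1.11). Among receptor, hormone target and epithelial genes the difference was positive for VIM (1.56), ERBB4 (0.46), KRT80 (0.93), SFN (0.71), STC2 (0.78) and EGF (0.79), and negative for ERBB2 (-0.17), AGR2 (-0.52) and RET (-0.48). Among FOXO, lysosome, stress and TGF-beta genes the difference was positive for DDIT4 (0.66), PIK3IP1 (0.83), CITED2 (0.63), CCNG2 (0.44), KLHL24 (0.59), ULK1 (0.54) and HMOX1 (1.61), and negative for TGFB3 (-0.68). Among genes outside the lists the difference was positive for LBHD1 (1.63), RRAGD (1.63), CSKMT (2.05), NYNRIN (2.30), SFXN3 (1.60), SYDE1 (1.32), RN7SK (3.09), TH (1.78) and CLEC7A (1.78), and negative for CYP1A1 (-3.27), TCN1 (-1.33), PRRT3 (-1.19), SLC13A3 (-1.18), KCND3 (-1.83) and NOG (-1.75). Of the 10 genes with the largest differences by the rule, the call was lost without BT474R 24 h replicate 2 for CSKMT (edgeR adjusted p = 0.0873) and without BT474 T0 replicate 1 for CSKMT (edgeR adjusted p = 0.0565) and NOG (edgeR adjusted p = 0.0734). The lines were handled alike as far as the labels tell, and no explanation of these differences was tested.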

How the results depend on the processing

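Under DESeq2, its size factors and other filters on low counts, the counts of genes called at 24 h against T0, 12 h against T0, 24 h against 12 h and between the lines stayed within 1.5 times those reported, with 1 exception: without a filter the 12 h against T0 count was 551 instead of 274. Other sets of libraries, run for 24 h against T0 and between the lines, and equal depth and summed repeat rows, run for 24 h against T0 alone, also stayed within 1.5 times. Leaving out 1 library, which leaves a group with 1 library that is assumed to vary like the others, gave 1491 to 2612 calls at 24 h against T0 (784 to 1267 higher, 707 to 1522 lower), 138 to 186 at 12 h against T0, 1667 to 3215 at 24 h against 12 h, and 870 to 1477 between the lines. For the 143 genes named in the text, 1893 of 2002 values under an alternative kept their direction and their side of the threshold, 91 kept the direction and lost the call, 11 gained it and 7 turned. The direction turned in uncalled genes alone, whose log2 fold changes with 1 library left out ran from -0.15 to 0.05 for DUSP4, -0.09 to 0.14 for ESR1, -0.01 to 0.04 for MIEN1, -0.10 to 0.28 for CD68 and -0.10 to 0.12 for VWF. DESeq2 did not call PGBD1, PSTPIP2 and SLC2A1. PKM and GRB7 were called without a filter, in a fit of the 4 compared libraries alone and in a fit of all 40, PKM also with a replicate block or crossed numbers, and RN7SK without a filter and in the fit of 4 libraries. Why the counts moved with single libraries was not tested. The replicate numbers were not taken as a pairing, since samples with the same number did not deviate together in every pair of groups: the correlation of deviations was -0.12 between T0 and 24 h, -0.09 between T0 and 12 h and 0.41 between 12 h and 24 h, and it was over 0.1 in 17 of 45 pairs of groups, from -0.37 to 0.52. With a replicate block 3463 genes were called at 24 h against T0 and 3811 at 24 h against 12 h, against 3319 and 3647 without it, and with crossed numbers, an alternative chosen after seeing the data, 3629 at 24 h against T0. Counts of list members with each library left out were also added after seeing the data. With 2 libraries per group and 16794594 counts in the smallest, changes of low genes were the least precise.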

Other observations

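Several families that no list held had members that were lower at 24 h. They were chosen after their values were seen and are given as whole families, with no test of the family. Beside them, 6.83% of all genes were lower, a share that takes in low genes. No share was computed among genes of a level like that of these families. Of the chaperonin CCT, the ring that folds actin and tubulin, 5 of 9 tested members were lower and 0 higher (median log2 fold change -0.20, and -0.01 at 12 h against T0). CCT2, a subunit, was at 232 and 223 CPM at T0 and 202 and 188 CPM at 24 h (log2 fold change -0.22 ± 0.06, SE, edgeR adjusted p = 0.0118). Of the proteasome, which degrades tagged proteins, 13 of 35 tested members were lower and 0 higher (median log2 fold change -0.13, and 0.07 at 12 h against T0). PSMB5, the chymotrypsin-like subunit, was at 197 and 205 CPM at T0 and 183 and 173 CPM at 24 h (log2 fold change -0.18 ± 0.05, SE, edgeR adjusted p = 0.0327). Of the hnRNP proteins, which package nuclear RNA, with pseudogenes left out, 12 of 24 tested members were lower and 0 higher (median log2 fold change -0.21, and -0.07 at 12 h against T0). Of the SR splicing factors 5 of 12 tested members were lower and 1 higher (median log2 fold change -0.11, and 0.04 at 12 h against T0). Called members with T0 replicate 1, T0 replicate 2, 24 h replicate 1 and 24 h replicate 2 left out in turn were 3, 4, 5 and 4 for the chaperonin, 6, 7, 8 and 10 for the proteasome, 7, 11, 8 and 12 for hnRNP proteins, 1, 4, 3 and 3 for SR factors and 7, 5, 8 and 6 for the mitochondrial tRNAs described next. Of the rows named for tRNAs of the mitochondrial genome, 9 of 22 tested were lower and 1 higher (median log2 fold change -0.31, and 0.11 at 12 h against T0). The study's methods name an mRNA library kit, so counts in these rows need not measure mature tRNAs. Some rows differed widely between duplicates, with TRNS1 at 181 and 516 CPM at T0. TRNL1, a leucine tRNA, was at 186 and 192 CPM at T0 and 128 and 95.7 CPM at 24 h (log2 fold change -0.75 ± 0.11, SE, edgeR adjusted p = 6.53e-05). TRNM, the methionine tRNA, was at 31.3 and 31.9 CPM at T0 and 19.9 and 14.7 CPM at 24 h (log2 fold change -0.86 ± 0.15, SE, edgeR adjusted p = 0.000428). In BT474 the medians were -0.03 for the chaperonin, -0.07 for the proteasome and -0.97 for the tRNAs.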
